A study of Mus musculus with 26 samples.

Results

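The genes described here were 37 genes of glycolysis and of the cellular response to low oxygen, chosen by symbol: 3 transporters, 8 enzymes of the hexose phase of glycolysis, 8 enzymes from the triose phase to lactate, 3 regulatory kinases, 4 genes of the HIF system and 11 further genes known to respond to hypoxia. Each symbol, ignoring case, matched 1 gene of the deposited count table, which held 55391 gene symbols. All 37 passed the filter on low counts and were among the 14264 genes tested. RNA was sequenced from EA1, EA2 and EA3, mouse lung cancer lines established from tumors of C57BL/6 mice in which an adenovirus encoding Cas9 and guides to Eml4 and Alk had induced the EML4-ALK fusion. Each line was grown in RPMI-1640 with fetal bovine serum and treated with 100 nM alectinib, an inhibitor of the ALK kinase, or with its solvent control, 0.1% DMSO. Libraries were made on days 1, 2, 3 and 5, 1 for each line, treatment and day, which gave 24 libraries. The 4 days of a line and treatment served as its replicates. No label says that the days were separate cultures, so p-values measure only the spread between these libraries.

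Glycolysis splits glucose into pyruvate, and lactate dehydrogenase reduces pyruvate to lactate, which leaves the cell through monocarboxylate transporters. When oxygen falls, prolyl hydroxylases no longer mark the HIF alpha subunits for degradation. The stabilized subunits pair with ARNT and activate target genes through short DNA elements. Known targets include most glycolytic enzymes, the glucose transporter GLUT1, VEGF-A and, as feedback, prolyl hydroxylases themselves. In tumor cells many of these genes are also known to respond to growth factor receptor signaling.

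The 26 libraries of the series, including 2 labeled EA3 day 7 that were kept out of the comparisons, held 5780062 to 11732401 counts with a median of 9252878. Each of the 24 libraries of days 1 to 5 correlated best with its own line. The drug was checked by 6 genes of MAPK pathway output (Etv4, Etv5, Fosl1, Dusp6, Spry2 and Spry4), and 6 of 6 fell with alectinib in each line. Epithelial markers were expressed in every line, although Cldn4 was at 0 in the EA2 DMSO libraries and Epcam at 0 in the EA2 alectinib libraries. Levels are given in CPM, a gene's count relative to the scaled library total. The 6 epithelial markers summed to 4633 to 9253 with DMSO and 3245 to 5367 CPM with alectinib in EA1. In EA2 the sums were 1811 to 2695 and 567 to 1169, without overlap, and in EA3 they were 4740 to 6840 and 3080 to 7151. Alectinib raised 1 and lowered 1 of the 6 in EA1 and in EA3, and raised 1 and lowered 2 in EA2. Alectinib-treated cultures carried more fibroblast marker RNA, and 5, 3 and 5 of the 7 markers rose in EA1, EA2 and EA3. The summed level of the 7 markers in EA1 was 9.09 to 44.1 CPM with DMSO and 126 to 478 with alectinib. The sums were 58.4 to 71.5 and 122 to 240 CPM for EA2, and 10.2 to 20.2 and 84.7 to 274 CPM for EA3. Lum was at 0 in every DMSO library, and immune markers summed to at most 10 counts in a library. In bulk RNA a smaller share of expressing cells and less RNA per cell cannot be told apart. Transcripts of proliferation (Mki67, Top2a, Mcm2, Mcm5, Pcna, Ccnb1, Cdk1 and Aurkb) moved with the drug too, and 3, 3 and 4 of these 8 fell in EA1, EA2 and EA3. Their summed level was 923 to 3240 CPM with DMSO and 742 to 1193 with alectinib in EA1. The ranges were 1664 to 2675 and 466 to 1733 CPM for EA2, and 788 to 2851 and 466 to 959 CPM for EA3. The part of the marker and proliferation genes in the results on the 37 genes was not tested.

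The HIF complex recognizes the letters ACGTG or GCGTG. Windows of 250 bases before the annotated starts of the genes, taken from RefSeq (GRCm38.p6, the mm10 assembly), were searched for these letters on both strands. The table held windows for 35 of the 37 genes, all but Ndrg1 and Epas1. At least 1 match was found in 40 of 51 windows (78.4%), against 38.6% of the 32851 windows of all genes. By gene, 32 of 35 had a matching window, against 41.5% of all genes in the table. The E-box CACGTG, which contains ACGTG and is bound by other factors, was in 11.8% of the windows of the 35 genes and in 6.02% of all windows. Both strings of letters hold CG, and the windows of all genes were not matched to those of the 35 for base composition or expression. The shares are a description, and their difference was not tested. A match describes letters and is not a bound site. The windows of 6 genes on which the results turn are shown 5′ to 3′ on the strand of the gene. Matched letters are in capitals and read CACGT or CACGC where the match lies on the other strand.
Slc2a1, chr4:119108495-119108744, plus strand: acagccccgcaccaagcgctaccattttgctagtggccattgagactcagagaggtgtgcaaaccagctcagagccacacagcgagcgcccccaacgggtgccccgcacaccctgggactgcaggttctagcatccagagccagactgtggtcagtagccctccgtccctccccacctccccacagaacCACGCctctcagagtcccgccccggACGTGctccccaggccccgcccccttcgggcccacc
Slc16a3, chr11:120948817-120949066, plus strand: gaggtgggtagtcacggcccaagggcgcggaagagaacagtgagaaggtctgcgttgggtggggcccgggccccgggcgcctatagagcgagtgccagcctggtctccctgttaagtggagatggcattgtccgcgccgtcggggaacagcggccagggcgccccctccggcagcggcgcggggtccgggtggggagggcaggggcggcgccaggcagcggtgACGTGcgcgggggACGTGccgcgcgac
Hk2, chr6:82774455-82774704, minus strand: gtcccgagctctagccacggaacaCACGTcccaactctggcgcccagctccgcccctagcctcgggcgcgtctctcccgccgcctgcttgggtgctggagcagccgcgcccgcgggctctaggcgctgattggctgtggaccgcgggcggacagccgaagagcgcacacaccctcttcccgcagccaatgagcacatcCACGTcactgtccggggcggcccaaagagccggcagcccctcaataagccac
Ldha, chr7:46845554-46845803, plus strand: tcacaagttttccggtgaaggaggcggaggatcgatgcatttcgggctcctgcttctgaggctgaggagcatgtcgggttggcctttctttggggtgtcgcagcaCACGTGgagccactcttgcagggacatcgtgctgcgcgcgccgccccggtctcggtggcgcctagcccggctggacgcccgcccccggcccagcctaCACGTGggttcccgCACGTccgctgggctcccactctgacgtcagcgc
Egln3, chr12:54203875-54204124, minus strand: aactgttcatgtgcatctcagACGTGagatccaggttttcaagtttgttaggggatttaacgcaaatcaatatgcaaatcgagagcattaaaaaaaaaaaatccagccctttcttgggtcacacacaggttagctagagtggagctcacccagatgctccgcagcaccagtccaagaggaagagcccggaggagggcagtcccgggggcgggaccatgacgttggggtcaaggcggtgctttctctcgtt
Ankrd37, chr8:45999851-46000100, minus strand: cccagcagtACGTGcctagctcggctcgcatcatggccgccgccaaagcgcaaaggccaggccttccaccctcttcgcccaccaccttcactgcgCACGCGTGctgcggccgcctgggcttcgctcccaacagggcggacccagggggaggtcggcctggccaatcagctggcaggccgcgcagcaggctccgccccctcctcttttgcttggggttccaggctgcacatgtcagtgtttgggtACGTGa
The Slc2a1 window held 2 matches, 61 and 36 bases before the start, and the Slc16a3 window held 2, at 27 and 14 bases. Hk2 had matches 226 and 52 bases before its start, and Egln3 had 1 at 229 bases. Of the 5 matches in the Ldha window shown, all but 1 lay in E-boxes, each of which matches on both strands. A further Ldha window, at chr7:46846832-46847081 and not shown, held 1 match, 59 bases before its start. Ankrd37 had 4 matches, the nearest of which began 6 bases before its start.

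Alectinib lowered 29 of the 37 genes in EA3, 12 in EA2 and 5 in EA1. The only members that rose were Slc16a3 and Car9, both in EA1. Hk2 and Ldha fell in all 3 lines, and the 12 genes that fell in EA2 were among the 29 that fell in EA3. Effects were estimated with edgeR's quasi-likelihood test as the log2 fold change of alectinib over DMSO within each day, with Benjamini-Hochberg adjustment over all genes tested and a threshold of 0.05 on the adjusted p. For EA1, EA2 and EA3 the median log2 fold change of the 37 genes was -0.20, -0.62 and -1.20, beside 0.06, 0.00 and 0.07 over all genes tested. Of all genes tested, 14.6% were lower and 19% higher in EA1, 11.3% lower and 13% higher in EA2, and 15.1% lower and 17.5% higher in EA3. No member was higher in EA2 or EA3, and none was higher there at an unadjusted p under 0.05 or with DESeq2, whereas without a filter on low counts 1 was higher in EA2, beside 18 lower. Days decided part of these counts: without day 5, EA1 had 3 members higher and 1 lower, without day 2 or day 3 it had 2 called in all, and EA2 had 7 called without day 2 or without day 3. In EA3 the count stayed between 21 and 30 whichever day was left out. The calls named below as lost without a day are not a complete list. When libraries were scaled by their totals alone, EA1 had 2 members higher and 2 lower. Without the replicate block of days 3 members were called in EA1, and without a filter on low counts 11.

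**Figure D1:**
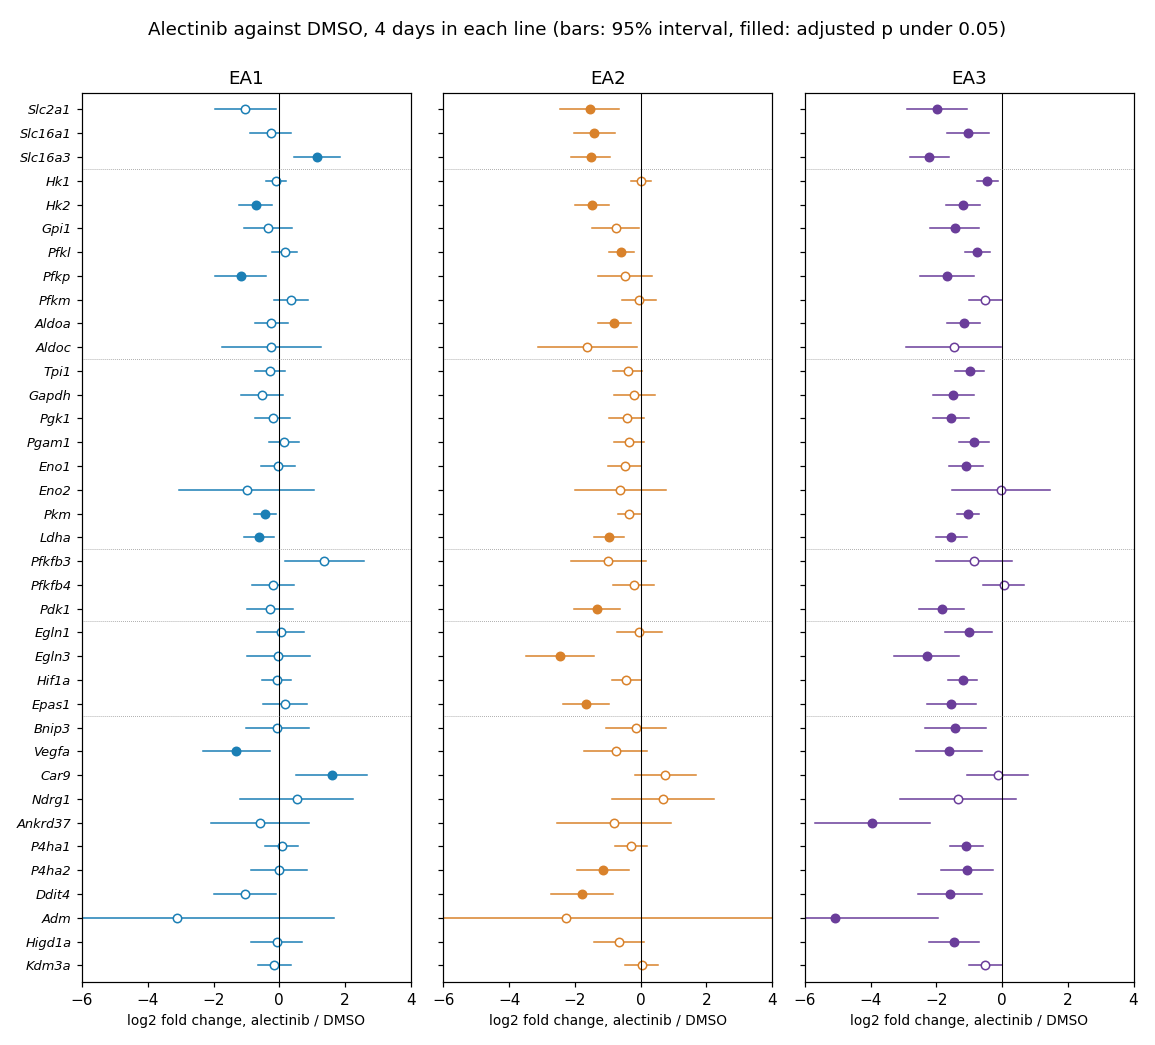
Log2 fold change of alectinib over DMSO for each of the 37 genes in EA1, EA2 and EA3, with 95% intervals from the quasi-likelihood fit (4 days per line and treatment) and filled symbols where the adjusted p was under 0.05. In EA3, 29 symbols are filled and all of them lie below 0, in EA2 12 are, and in EA1 5 lie below 0 and 2 above it.

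All 3 transporters fell in EA2 and EA3, whereas in EA1 1 rose and none fell. Slc2a1 encodes GLUT1, the main glucose importer of many cell types. In EA3, on days 1, 2, 3 and 5 in that order, as in all series of values that follow, its level was 181, 302, 328 and 1131 CPM with DMSO and 97.8, 86.9, 84.3 and 115 with alectinib. The DMSO cultures were above the alectinib cultures on every day and the ranges did not overlap. Slc2a1 fell by 1.98 ± 0.43 log2 units (SE, adjusted p = 0.00375) in EA3 and by 1.55 ± 0.42 log2 units (SE, adjusted p = 0.0155) in EA2. In EA1 its values were 136, 265, 391 and 1059 CPM with DMSO and 138, 187, 192 and 159.6 with alectinib, which were alike on day 1 and furthest apart on day 5, and the log2 fold change of -1.03 ± 0.42 (SE, adjusted p = 0.077) did not pass the threshold. Slc16a1 encodes MCT1, a bidirectional carrier of lactate and pyruvate. Its EA2 values were 334, 357, 276 and 261 CPM with DMSO and 113, 125, 127 and 96.9 with alectinib, ranges that did not overlap. Slc16a1 fell by 1.41 ± 0.29 log2 units (SE, adjusted p = 0.00323) in EA2 and by 1.04 ± 0.30 log2 units (SE, adjusted p = 0.017) in EA3, where the day 5 alectinib library, at 299.9 CPM, stood above 3 of the 4 DMSO libraries. The call of Slc2a1 in EA2 was lost without day 2 or day 3, and that of Slc16a1 in EA3 without day 1, day 2 or day 3, with adjusted p-values over all alternatives of up to 0.118 and 0.101, whereas their calls in the other line held under each alternative.

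Slc16a3 encodes MCT4, the carrier that exports lactate from strongly glycolytic cells, and was the member with the clearest difference between lines. In EA3 it was at 212, 476, 592 and 592 CPM with DMSO and at 54.5, 58.8, 155 and 152 with alectinib. In EA2 it was at 74.4, 94.97, 76.7 and 104 CPM with DMSO and at 36.5, 30.6, 14.9 and 48.3 with alectinib. The treated range lay below the DMSO range in both lines. Slc16a3 fell by 2.21 ± 0.27 log2 units (SE, adjusted p = 9.17e-05) in EA3 and by 1.52 ± 0.27 log2 units (SE, adjusted p = 0.00133) in EA2. In EA1 it was near the bottom of its range, at 2.72, 3.01, 2.78 and 4.01 CPM with DMSO and 2.70, 7.84, 11.2 and 8.38 with alectinib, with no difference on day 1 and higher treated values on the other days. It rose in EA1 by 1.16 ± 0.33 log2 units (SE, adjusted p = 0.015), a call that was lost without day 2, day 3 or day 5, with an adjusted p of up to 0.101 over its alternatives.

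Among the 8 hexose phase enzymes, 6 fell in EA3, 3 in EA2 and 2 in EA1. Hk2 encodes hexokinase 2, which traps glucose as glucose-6-phosphate and is the inducible hexokinase of tumors. In EA3 Hk2 was at 261, 255, 541 and 821 CPM with DMSO and 157, 150.5, 249 and 177 with alectinib. In EA2 it was at 105, 89.2, 104 and 121 CPM and 34.3, 26.2, 58.7 and 36.6, and the treated range lay below the DMSO range. EA1 held 124, 199, 377 and 356 CPM and 93.3, 139, 242 and 143. The EA1 ranges overlapped, but DMSO was higher on each day. Hk2 fell by 1.48 ± 0.24 log2 units (SE, adjusted p = 0.000708) in EA2, by 1.20 ± 0.24 log2 units (SE, adjusted p = 0.00229) in EA3 and by 0.72 ± 0.24 log2 units (SE, adjusted p = 0.0314) in EA1. Pfkp encodes the platelet isoform of phosphofructokinase, the committed step of glycolysis. In EA3 it was at 20.2, 63.4, 167 and 188 CPM with DMSO and 19.95, 18.9, 32.1 and 35.8 with alectinib, equal on day 1 and apart from day 2 onward. Its EA1 values were 90.3, 245, 310.0 and 520.2 CPM and 76.1, 133, 125 and 106, again with the smallest gap on day 1. Pfkp fell by 1.68 ± 0.38 log2 units (SE, adjusted p = 0.005) in EA3 and by 1.18 ± 0.37 log2 units (SE, adjusted p = 0.0244) in EA1, while in EA2, where it was at 9.40 to 30.4 CPM with DMSO, its log2 fold change was -0.49 ± 0.38 (SE, adjusted p = 0.386). Pfkl, the liver isoform, and Aldoa, which encodes aldolase A, fell in EA2 and EA3. Pfkm and Aldoc passed the threshold in no line. Single days decided 5 of these calls. Hk2 in EA1 was lost without day 1 or day 3, Pfkp in EA1 without day 2, 3 or 5, Pfkp in EA3 without day 3, Pfkl in EA2 without day 1, 2 or 3, and Aldoa in EA2 without day 2 or 3. Their adjusted p-values over all alternatives reached 0.117, 0.107, 0.0513, 0.111 and 0.0901.

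Among the 8 enzymes from triose phosphates to lactate, 7 fell in EA3, all except Eno2, 1 in EA2 (Ldha) and 2 in EA1 (Pkm and Ldha). Ldha encodes the lactate dehydrogenase subunit that favors lactate formation. In EA3 its level was 1646, 2453, 1726 and 3085 CPM with DMSO and 719, 668, 646 and 964 with alectinib, without overlap. In EA2 it was 1408, 1933, 908 and 1304 CPM and 783, 924, 389 and 769, with only the day 3 DMSO library inside the treated range. The EA1 level was 2313, 2879, 1714 and 4441 CPM and 1369, 2393, 1798 and 1586, and on day 3 the treated library was the higher of the pair. Ldha fell by 1.54 ± 0.21 log2 units (SE, adjusted p = 0.000191) in EA3, by 0.97 ± 0.21 log2 units (SE, adjusted p = 0.00427) in EA2 and by 0.61 ± 0.21 log2 units (SE, adjusted p = 0.0414) in EA1. Gapdh, the dehydrogenase of glyceraldehyde 3-phosphate that often serves as a reference gene, was at 4451, 5622, 4913 and 14118 CPM with DMSO and 2257, 2371, 1763 and 2982 with alectinib in EA3. Every DMSO value of Gapdh was above every treated value there, and it fell by 1.48 ± 0.29 log2 units (SE, adjusted p = 0.00206). Pgk1, which encodes the first ATP-forming enzyme of the pathway, was at 596, 1095, 1606 and 2634 CPM and 359, 393, 389.6 and 693 in EA3 and fell by 1.55 ± 0.25 log2 units (SE, adjusted p = 0.000604). Pkm, which encodes pyruvate kinase, fell by 1.03 ± 0.16 log2 units (SE, adjusted p = 0.000329) in EA3 and by 0.43 ± 0.15 log2 units (SE, adjusted p = 0.0441) in EA1. Eno2, the neuronal enolase, had small counts in EA1, with 1, 3, 8 and 39 counts with DMSO and 5, 2, 6 and 11 with alectinib. The EA1 calls depended on single days: Ldha was lost without day 1 or day 5 and Pkm without day 1, 2 or 5, with adjusted p-values of up to 0.184 and 0.174 over all alternatives.

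Of the 3 regulatory kinases, only Pdk1 passed the threshold with alectinib. Pdk1 encodes a kinase that inactivates pyruvate dehydrogenase and so keeps pyruvate out of the mitochondrial oxidation route. In EA3 it was at 159, 263, 298 and 411 CPM with DMSO and 53.7, 60.2, 70.7 and 136 with alectinib, ranges that did not overlap. Pdk1 fell by 1.84 ± 0.32 log2 units (SE, adjusted p = 0.000908) in EA3 and by 1.34 ± 0.32 log2 units (SE, adjusted p = 0.00834) in EA2, and its EA1 log2 fold change was -0.29 ± 0.32 (SE, adjusted p = 0.51). The EA2 call was lost without day 2, at an adjusted p of up to 0.0513 over its alternatives. Pfkfb3, whose product makes the phosphofructokinase activator fructose 2,6-bisphosphate, did not pass in any line. In EA1 it was at 7.11, 9.80, 6.20 and 38.1 CPM with DMSO and 31.4, 31.7, 32.7 and 21.4 with alectinib, higher with alectinib on the first 3 of these days and lower on day 5. In EA3 it was at 42.5, 61.9, 134 and 316 CPM and 68.9, 58.9, 42.5 and 60.2, above DMSO on day 1 and below it on days 3 and 5.

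All 4 HIF system genes fell in EA3, 2 fell in EA2 (Epas1 and Egln3) and none passed in EA1. Hif1a encodes the alpha subunit HIF1A, which is regulated mainly as a protein. In EA3 its mRNA was at 439.6, 692, 1022 and 810.0 CPM with DMSO and 189.7, 254, 332 and 566 with alectinib. DMSO was higher on every day, with overlapping ranges, and Hif1a fell by 1.20 ± 0.21 log2 units (SE, adjusted p = 0.000884). EA1 held 309, 549, 946 and 726 CPM and 493, 569.5, 667 and 499, higher with alectinib on days 1 and 2 and lower on days 3 and 5. In EA2 it was at 204, 239, 355 and 303 CPM and 177, 166, 256 and 206, lower with alectinib on every day, with a log2 fold change of -0.44 ± 0.21 (SE, adjusted p = 0.139). Epas1, which encodes the alpha subunit HIF2A, was at 12.9, 11.3, 20.8 and 21.6 CPM with DMSO and 5.63, 4.07, 7.67 and 3.60 with alectinib in EA2, without overlap. In EA3 it was at 2.78, 4.55, 49.7 and 17.3 CPM and 1.39, 1.20, 14.96 and 6.28, where day 3 was the highest library of both treatments. Epas1 fell by 1.66 ± 0.33 log2 units (SE, adjusted p = 0.00254) in EA2 and by 1.54 ± 0.34 log2 units (SE, adjusted p = 0.00432) in EA3. In EA1 it was at 42.6, 48.5, 18.9 and 37.1 CPM and 28.8, 34.3, 55.1 and 44.2, with overlapping ranges. The calls of Hif1a in EA3 and of Epas1 in EA2 and EA3 held whichever day was left out, although those of Epas1 were lost when the day was not kept as a block (adjusted p of up to 0.109 and 0.0867).

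Egln3 encodes the prolyl hydroxylase PHD3, itself a strong HIF target. In EA3 it was at 132, 330.1, 388 and 723 CPM with DMSO and 36.95, 46.8, 56.6 and 214 with alectinib. In EA2 it was at 95.6, 99.6, 152 and 202 CPM and 47.5, 27.9, 23.7 and 8.65. The EA2 treated values decreased from each day to the next while the DMSO values increased, and the EA2 ranges did not overlap. Egln3 fell by 2.45 ± 0.48 log2 units (SE, adjusted p = 0.00266) in EA2 and by 2.30 ± 0.45 log2 units (SE, adjusted p = 0.00223) in EA3. EA1 held 33.6, 74.5, 49.8 and 158 CPM and 30.0, 73.00, 105 and 81.5, and the direction differed from day to day. The Egln3 calls held whichever day was left out, but the EA2 call was lost when EA2 was fitted alone (adjusted p = 0.0594). Egln1, which encodes the main oxygen sensor PHD2, fell by 1.02 ± 0.33 log2 units (SE, adjusted p = 0.0286) in EA3, a call lost without day 2 or day 3, with an adjusted p of up to 0.0931 over its alternatives.

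Of the 11 further hypoxia response genes, 8 fell in EA3, all except Car9, Ndrg1 and Kdm3a. In EA2, P4ha2 and Ddit4 fell, and in EA1 Vegfa fell and Car9 rose. Vegfa encodes the angiogenic growth factor VEGF-A. In EA3 it was at 186, 573, 1446 and 2993 CPM with DMSO and 136, 195, 514 and 386 with alectinib. In EA1 it was at 126, 471, 1022 and 1869.6 CPM and 143, 208, 443 and 221. On day 1 the cultures of EA1 differed little and by day 5 DMSO was the higher in both lines by a wide margin. Vegfa fell by 1.61 ± 0.46 log2 units (SE, adjusted p = 0.018) in EA3 and by 1.31 ± 0.47 log2 units (SE, adjusted p = 0.0482) in EA1. Ankrd37, an ankyrin repeat gene induced by HIF, was at 2.33, 24.8, 22.3 and 142 CPM with DMSO and 1.48, 1.20, 1.22 and 2.92 with alectinib in EA3. It was low in both cultures on day 1 and stayed low only with alectinib, and fell by 3.95 ± 0.81 log2 units (SE, adjusted p = 0.00283). Ddit4 encodes REDD1, an inhibitor of mTORC1 signaling. It was at 113, 141, 292 and 253 CPM and 60.6, 48.8, 62.5 and 45.9 in EA2 and at 95.02, 511, 297 and 1007 CPM and 101, 117, 105 and 155 in EA3. Ddit4 fell by 1.78 ± 0.44 log2 units (SE, adjusted p = 0.00969) in EA2 and by 1.59 ± 0.45 log2 units (SE, adjusted p = 0.0163) in EA3, where the day 1 values alone were not lower with alectinib. Calls were lost without day 2, 3 or 5 for Vegfa in EA1, without day 2 or 3 for Vegfa and Ddit4 in EA3 and without day 3 for Ddit4 in EA2. Their adjusted p-values over all alternatives reached 0.164, 0.0771, 0.0957 and 0.0819, while Ankrd37 held in EA3 under each alternative.

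Adm encodes adrenomedullin, a vasodilator peptide. In EA3 it had 0, 55, 86 and 1266 counts with DMSO and 3, 1, 10 and 9 with alectinib, so its difference came from days 2 to 5. In CPM the EA3 DMSO values were 0, 6.41, 11.3 and 209. Adm passed the threshold in EA3 (edgeR's quasi-likelihood test, adjusted p = 0.0215), but not without day 2 or with DESeq2, where the adjusted p reached 0.227, and no fold is given because 2 of the treated libraries and 1 DMSO library were at or under 3 counts. In EA2 it had at most 2 counts in any library. Adm passed the filter on low counts only through DMSO libraries in which it was high. Its calls with alectinib, over the DMSO days and between lines enter the member counts but are given as a description. Without day 5, 36 of the 37 members were tested. Car9, which encodes the cell surface carbonic anhydrase IX, also rested on few counts. In EA1 it had 1, 2, 4 and 10 counts with DMSO and 8, 12, 12 and 21 with alectinib, and it rose with an adjusted p of 0.0254 (edgeR's quasi-likelihood test), with no fold given for counts this low. The call was lost without day 1, 2 or 3, with an adjusted p of up to 0.144 over its alternatives. Ndrg1, a stress-responsive gene often used as a hypoxia marker, did not pass with alectinib in any line, and its direction differed between days.

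**Figure D2:**
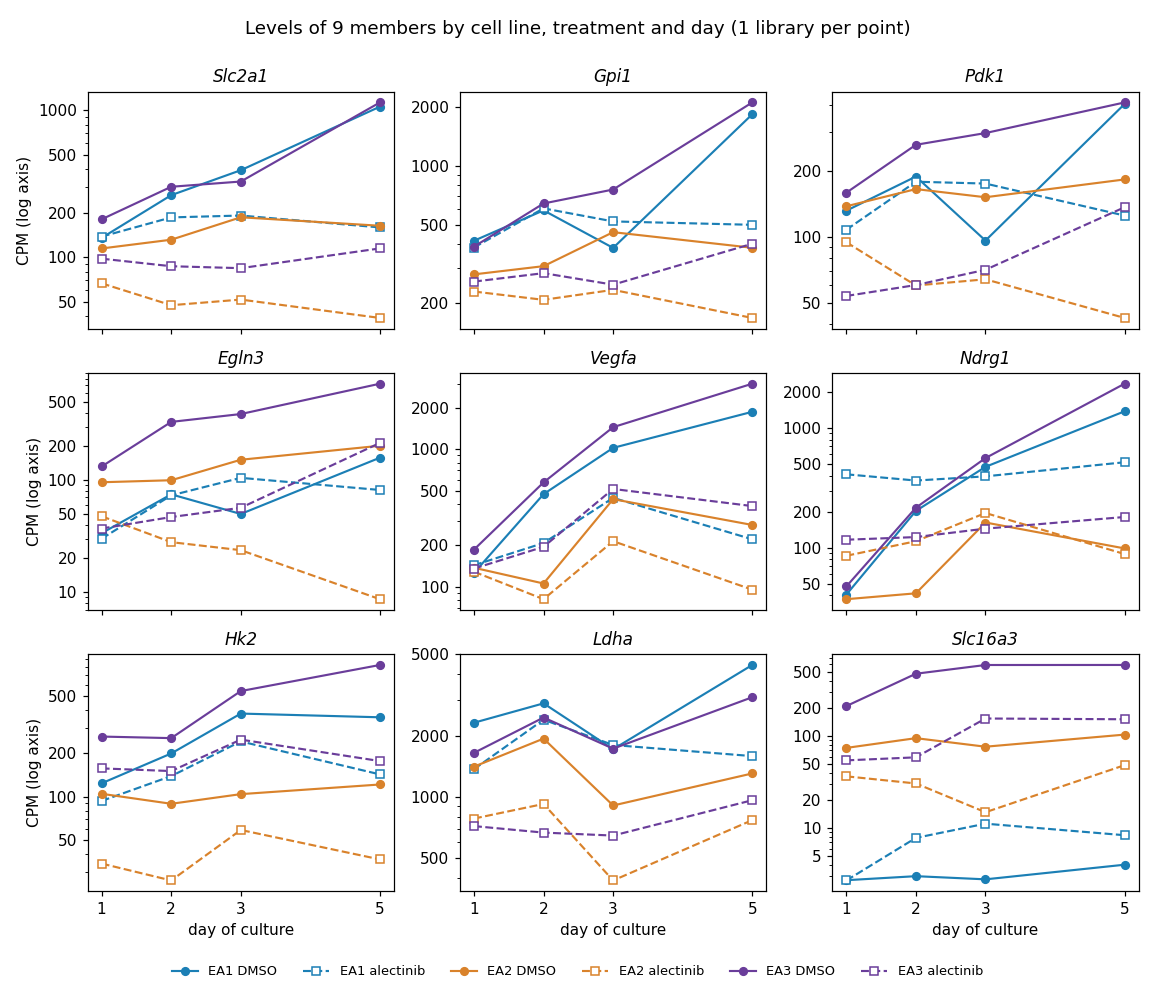
Level of 9 of the genes (CPM, log axis) by day, with filled circles and solid lines for DMSO, open squares and dashed lines for alectinib, colors for the lines and 1 library per point. In EA1 and EA3 the DMSO lines of Slc2a1, Vegfa and Ndrg1 climb to the highest level of their panels on day 5, whereas the EA2 lines stay lower.

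The alectinib effect differed between lines, by a test of the difference itself, for 2 of the 37 genes, and 6.84% of all genes tested passed that test. Slc16a3 passed with an adjusted p of 0.0015 and Epas1 with 0.0361 (edgeR's quasi-likelihood test). For Slc16a3 the log2 effect in EA3 minus that in EA1 was -3.37 ± 0.42 (SE, adjusted p = 0.00212), and that in EA2 minus that in EA1 was -2.68 ± 0.42 (SE, adjusted p = 0.00314). The effects in EA2 and EA3 were not distinguishable, with a difference of -0.69 ± 0.38 (SE, adjusted p = 0.35) and a 95% interval from -1.51 to 0.12. For Epas1 the effect in EA2 minus that in EA1 was -1.83 ± 0.45 (SE, adjusted p = 0.0307), and its call was lost when day 2, day 3 or day 5 was left out. The count was 1 without day 2 or day 3, when only Slc16a3 remained, and 6 without day 5, and it was 1 without the replicate block of days. For the other 35 genes a difference between lines did not pass this test, and the count depended on the processing: DESeq2 called 13 members and edgeR 25 without a filter on low counts. Among all genes, DESeq2 called 1955 of 14264, and edgeR without that filter called 2698 of 33394. At an unadjusted p under 0.05, 18 members passed the test between lines, beside 25.1% of all genes tested. For the effect in EA3 minus that in EA1, 23 members did, all lower in EA3, beside 15.2% of all genes.

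Day by day, the median log2 ratio of alectinib to DMSO over the 37 genes was 0.00, 0.02, 0.45 and -1.22 in EA1 on days 1, 2, 3 and 5. In EA1, 18, 21, 27 and 3 of the 37 ratios were above 0. On day 1 the ratios were thus evenly split, with 18 below 0 and Adm, which had no counts in either library, at 0, and on day 5 most genes were below their DMSO level. In EA2 the medians were -0.29, -0.50, -0.82 and -0.76, with 8, 5, 6 and 5 ratios above 0. In EA3 they were -0.58, -1.25, -1.49 and -1.68, with 8, 1, 2 and 2 ratios above 0. The lower level in EA3 was thus present on each day, and on day 1 it was the smallest of the 4. These ratios compare 1 library with 1 other and are given as a description.

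**Figure D3:**
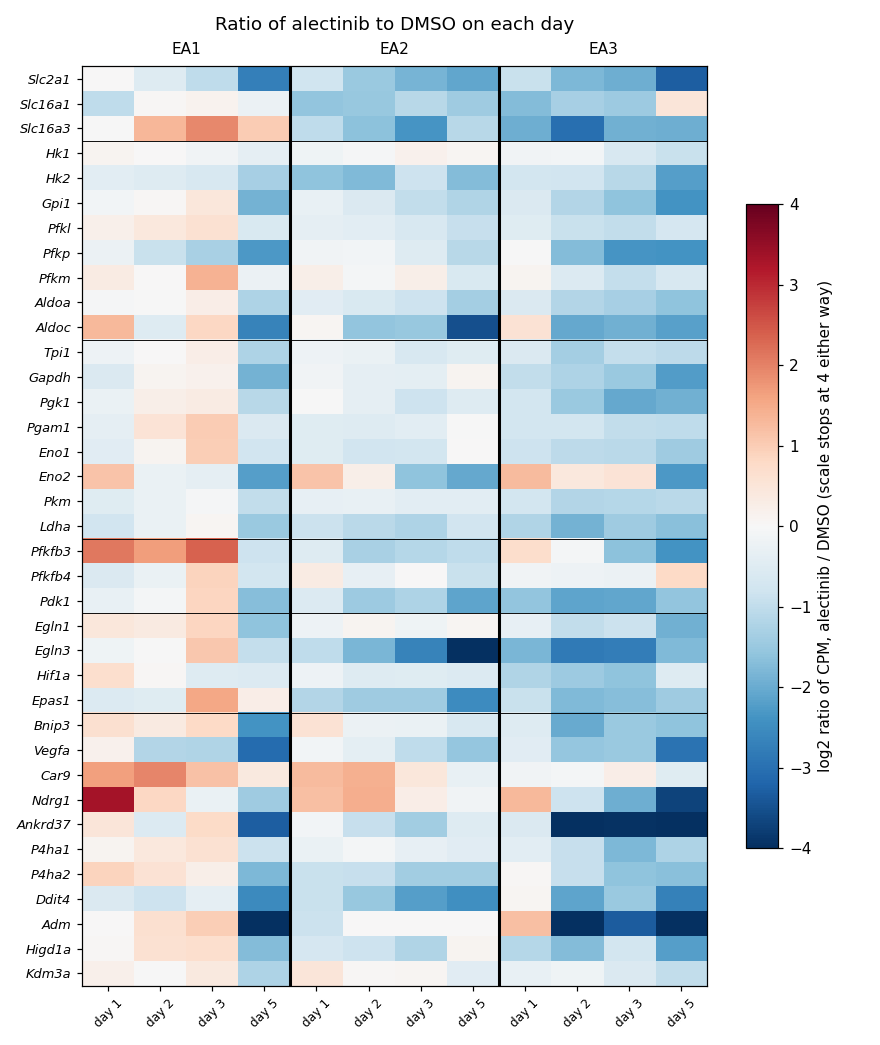
Log2 ratio of alectinib to DMSO (CPM plus a prior count) for each of the 37 genes on each day in each line, from 1 library of each treatment, with the color scale ending at 4 in both directions. In EA1 the column of day 5 has 3 ratios above 0 and that of day 3 has 27, whereas in EA3 no day has more than 8.

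In the DMSO cultures many of the 37 genes became more abundant over the days in 2 of the 3 lines. With a slope on log2 of the day, which gives the log2 change per doubling of days, 16 of the 37 genes rose in EA1, 21 in EA3 and 0 in EA2, and none fell in any line. All 16 of EA1 were among the 21 of EA3. The median slopes of EA1, EA2 and EA3 were 0.74, 0.25 and 0.82, beside 0.02, 0.00 and 0.02 over all genes tested. Of all genes tested, 1.98% rose and 1.65% fell in EA1, 5.69% rose and 5.66% fell in EA3, and 0% rose and 0% fell in EA2 (edgeR's quasi-likelihood test, adjusted p under 0.05). In EA2, 6 members had an unadjusted p under 0.05, all with positive slopes, beside 3.08% of all genes. DESeq2 called 0 members there, and without a filter on low counts 3 were called, all rising. A slope over 4 libraries rests on each of them. Without day 1, 2 or 5 no member passed in EA1, where 25 passed without day 3. Among all genes, 0 passed in EA1 without day 1, 2 or 5 and 1585 of 14343 without day 3. In EA3 0 members passed without day 1, 7 without day 2, 26 without day 3 and 2, Ndrg1 and Pfkp, without day 5. Among all genes, 0 of 14366, 256 of 14490, 2929 of 14343 and 15 of 14270 passed in these EA3 fits. With all 26 libraries 0 members passed in EA1 and 3 in EA3, beside 1 and 1377 of 14335 genes. The 2 libraries added there, labeled EA3 day 7, correlated best with EA2 libraries. With the 12 DMSO libraries alone 8 members passed in EA1. The slopes were not shown to differ between lines, since 0 members and 0% of all genes passed the test of that difference, which was added after the data were seen. At an unadjusted p under 0.05, 11 members passed it, beside 5.87% of all genes.

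By role, the genes that rose with DMSO included Slc2a1 alone among the transporters, 4 hexose phase enzymes in EA1 and 6 in EA3, and 1 and 2 triose phase enzymes. Of the 11 further hypoxia response genes, 8 rose in EA1 and 9 in EA3. Apart from Adm and Eno2, which had few counts in EA1, Ndrg1 had the steepest slope in EA1 and EA3. Its DMSO values were 40.6, 203, 473 and 1376 CPM for EA1. They were 37.2, 41.6, 162 and 98.6 CPM for EA2 and 47.5, 216, 560.0 and 2339 CPM for EA3. Each day was above the last in EA1 and EA3, whereas EA2 peaked on day 3. Its slope, in log2 units per doubling, was 2.19 ± 0.27 (SE, adjusted p = 0.00152) in EA1, 2.41 ± 0.26 (SE, adjusted p = 0.000881) in EA3 and 0.84 ± 0.27 (SE, adjusted p = 1) in EA2. Slc2a1 rose by 1.25 ± 0.17 log2 units (SE, adjusted p = 0.00184) per doubling in EA1 and by 1.08 ± 0.16 log2 units (SE, adjusted p = 0.0024) in EA3, and its EA2 slope was 0.27 ± 0.17 (SE, adjusted p = 1). Vegfa, whose DMSO values are given above, rose by 1.71 ± 0.35 log2 units (SE, adjusted p = 0.0217) per doubling in EA1 and by 1.76 ± 0.34 log2 units (SE, adjusted p = 0.00604) in EA3.

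Ankrd37 with DMSO was at 6.28, 23.8, 11.3 and 166 CPM in EA1 and 1.61, 2.53, 4.81 and 2.49 in EA2. The EA1 day 5 library was the highest of the line by far, and EA2 stayed low throughout. Ankrd37 rose by 1.91 ± 0.35 log2 units (SE, adjusted p = 0.0138) per doubling in EA1 and by 2.34 ± 0.40 log2 units (SE, adjusted p = 0.00397) in EA3. Eno2 with DMSO was at 1.35, 4.78, 12.3 and 48.3 CPM in EA3 and 8.87, 7.13, 78.4 and 38.3 in EA2. Eno2 rose by 2.25 ± 0.46 log2 units (SE, adjusted p = 0.00801) per doubling in EA3 and also passed in EA1 with an adjusted p of 0.0451 by the same edgeR quasi-likelihood test. No EA1 slope is given for the few counts listed above. P4ha2 encodes a subunit of the prolyl hydroxylase that matures collagen. With DMSO it was at 13.2, 40.3, 53.7 and 205 CPM in EA1 and 52.9, 129.6, 265 and 584 in EA3, each day above the last, and it rose by 1.65 ± 0.20 log2 units (SE, adjusted p = 0.00152) and 1.50 ± 0.20 log2 units (SE, adjusted p = 0.00144) per doubling. Bnip3, which encodes a protein of the outer mitochondrial membrane that promotes mitophagy, was at 35.8, 94.7, 64.2 and 414 CPM in EA1 and 22.7, 85.7, 78.8 and 202 in EA3, with day 5 the highest in both, and rose by 1.41 ± 0.25 log2 units (SE, adjusted p = 0.0136) and 1.26 ± 0.28 log2 units (SE, adjusted p = 0.0112). Adm passed in EA1 on the day 5 library alone, which had 45 counts after 0, 0 and 0.

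Steps between days were uneven. Gpi1, which encodes glucose-6-phosphate isomerase, was at 415, 593, 381 and 1836 CPM in EA1 and 387, 643, 757 and 2111 in EA3 with DMSO, so most of its change fell between days 3 and 5. Gpi1 rose by 0.83 ± 0.21 log2 units (SE, adjusted p = 0.0424) per doubling in EA1 and by 1.01 ± 0.22 log2 units (SE, adjusted p = 0.0121) in EA3. Pfkp, in contrast, changed most between days 1 and 2 on the log scale, and rose by 1.06 ± 0.24 log2 units (SE, adjusted p = 0.0275) in EA1 and 1.50 ± 0.26 log2 units (SE, adjusted p = 0.00405) in EA3. Transcripts of proliferation moved over the same days. The summed level of the 8 proliferation genes with DMSO went from 3240 to 923 CPM between days 1 and 5 in EA1 and from 2851 to 788 in EA3, and lay between 1664 and 2675 in EA2. Of these 8, 1 fell over the days in EA1, 4 in EA3 and 0 in EA2, beside 1.65%, 5.66% and 0% of all genes tested. The part of the proliferation genes in the slopes of the 37 genes was not tested.

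With alectinib, no member passed the threshold for a slope over the days in any line, with 3, 1 and 12 members at an unadjusted p under 0.05 in EA1, EA2 and EA3, beside 4.70%, 6.58% and 11.2% of all genes. The median slope was 0.16, -0.05 and 0.35. Of all genes tested, 0% rose and 0% fell in EA1, 0.021% rose and 0.0421% fell in EA2, and 0.442% rose and 0.0491% fell in EA3. The difference between the alectinib and the DMSO slope passed for 1 member, Ndrg1 in EA3. Among all genes it was higher for 0% and lower for 0% in EA1 and in EA2, and higher for 0.021% and lower for 0.0421% in EA3. At an unadjusted p under 0.05, 14, 4 and 14 members had a slope difference in EA1, EA2 and EA3, beside 8.22%, 3.81% and 10.1% of all genes. DESeq2 called 3, 1 and 4, and without a filter on low counts 10, 3 and 11 were called. The DMSO slope, the slope difference and the alectinib effect share the DMSO libraries.

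Ndrg1 with alectinib was at 410.0, 364, 394 and 517 CPM for EA1. It was at 85.6, 113, 195 and 88.6 CPM for EA2 and 117, 123, 144 and 180.5 CPM for EA3. On day 1 alectinib was above DMSO in all 3 lines, and on day 5 it was below DMSO in all 3. The alectinib slope of Ndrg1 minus its DMSO slope was -2.14 ± 0.34 (SE, adjusted p = 0.0168) in EA3 and -2.05 ± 0.34 (SE, adjusted p = 0.111) in EA1. The EA3 call was lost without day 1, day 2 or day 5 and with days on a linear scale.

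**Figure D4:**
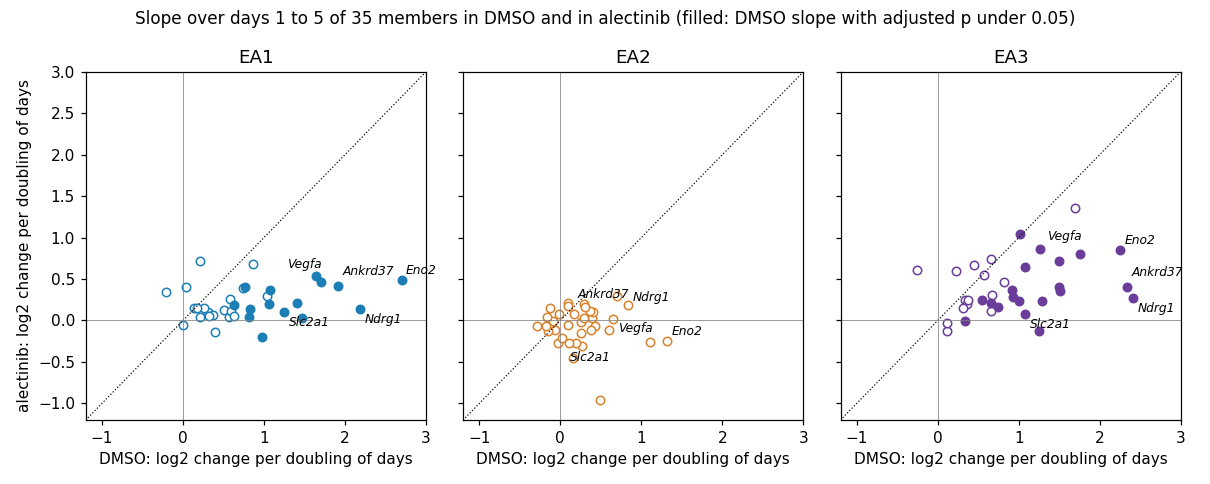
Slope with alectinib against slope with DMSO (log2 change per doubling of days) in each line for 35 genes, with Adm and Car9 left out for low counts, filled where the DMSO slope had an adjusted p under 0.05, and a dotted line where the slopes are equal. Filled points lie to the right of 0 in EA1 and EA3, EA2 has none, and Ndrg1 is the point furthest below the dotted line in EA3.

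Levels with DMSO differed between the lines for 27 of the 37 genes, where 55% of all genes tested did. Without the replicate block of days, 12 members passed. EA3 was above EA2 for 22 members and below it for 1, with 17.7% of all genes higher and 18.4% lower. EA3 was above EA1 for 14 and below it for 1, with 16.7% higher and 14.3% lower. EA2 was above EA1 for 4 and below it for 12, with 21.6% higher and 18.4% lower. Slc16a3 had the smallest p, with an adjusted p of 3.86e-09 (edgeR's quasi-likelihood test). Its log2 level in EA3 was 7.16 ± 0.28 (SE, adjusted p = 8.44e-09) above that in EA1, and its 3 DMSO ranges, given above, were separate. Pfkp was ordered differently, highest in EA1 and lowest in EA2, where its values were 9.40, 13.4, 30.4 and 24.1 CPM, with EA2 minus EA1 at -3.80 ± 0.29 (SE, adjusted p = 5.75e-07). Egln3 was higher in EA3 than in EA1 by 2.31 ± 0.25 (SE, adjusted p = 2.17e-05). Hif1a was higher in EA3 than in EA2 by 1.39 ± 0.17 (SE, adjusted p = 4.36e-05), while EA3 and EA1 differed by 0.27 ± 0.16 (SE, adjusted p = 0.235). Adm was almost absent from EA2, and differed between lines with edgeR's quasi-likelihood test (adjusted p = 3.52e-05) but not with DESeq2 (adjusted p = 0.276).

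Levels per length, in CPM per kilobase of exon, left out Aldoa, since 2 gene models carry that symbol in the annotation. The length was that of all annotated exons of a gene merged, not of the transcripts expressed here. The order of the genes depends on that choice. With DMSO, Pkm was at 898 ± 239 (SD, n = 4), 783 ± 101 (SD, n = 4) and 767 ± 120.3 (SD, n = 4), and Gapdh was at 838 ± 561 (SD, n = 4), 420.5 ± 66.9 (SD, n = 4) and 1760.4 ± 1109.8 (SD, n = 4). Pkm had the highest mean of the other 36 members in EA1 and EA2 and Gapdh in EA3, and Pkm, Ldha and Gapdh in EA1 lay within each other's SD. Car9 was the least abundant member per length in EA1, at 0.222 ± 0.233 (SD, n = 4), and also in EA3, at 0.798 ± 0.440 (SD, n = 4).

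Other genes of these pathways were counted from lists that held no member. Of 18 further glycolysis genes tested, 5 rose and 1 fell in EA1, 3 rose and 2 fell in EA2, and 5 rose and 2 fell in EA3, with median log2 fold changes of 0.10, 0.00 and 0.11. These counts and those that follow in this paragraph are read against the shares of all genes tested with alectinib. For EA1 these were 19% higher with 14.6% lower, for EA2 13% with 11.3% and for EA3 17.5% with 15.1%. Pdk2, which encodes another pyruvate dehydrogenase kinase, rose in all 3 lines, by 1.98 ± 0.35 log2 units (SE, adjusted p = 0.00101) in EA1, 1.23 ± 0.35 log2 units (SE, adjusted p = 0.021) in EA2 and 1.08 ± 0.34 log2 units (SE, adjusted p = 0.0259) in EA3. Ldhb, the lactate dehydrogenase subunit that favors pyruvate formation, rose in EA1 and EA3 on few counts, with 1 to 6 counts with DMSO and 32 to 57 with alectinib in EA1. Of 10 further genes of HIF regulation tested, 3, 2 and 2 rose and none fell. Cited2, which encodes a competitor of HIF for its coactivator, rose by 3.12 ± 0.32 log2 units (SE, adjusted p = 2.47e-05) in EA2 and by 1.10 ± 0.32 log2 units (SE, adjusted p = 0.0165) in EA3. Of 27 further hypoxia response genes tested, 4 rose and 3 fell in EA1, 5 rose and 4 fell in EA2, and 4 rose and 13 fell in EA3, with medians of 0.06, 0.16 and -0.62. In that list Stc2 and Pgf, a secreted glycoprotein and a VEGF family ligand, fell in all 3 lines, while Edn1, which encodes endothelin 1, rose in all 3, in EA1 from 0 counts in the 4 DMSO libraries. Pgf fell by 2.95 ± 0.88 log2 units (SE, adjusted p = 0.0219) in EA3, and Edn1 rose there by 4.19 ± 0.42 log2 units (SE, adjusted p = 7.28e-05). Of 7 pentose phosphate pathway genes, 1 rose and 1 fell in EA1, and 2 fell in EA2 and in EA3.

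With DMSO over the days, 13 of the 27 further hypoxia response genes rose in EA1, 16 in EA3 and 0 in EA2, and none fell, with median slopes of 0.81, 1.11 and 0.11. Pgf, for example, rose by 2.21 ± 0.34 log2 units (SE, adjusted p = 0.00606) per doubling in EA1 and by 2.53 ± 0.38 log2 units (SE, adjusted p = 0.0024) in EA3. Of the 18 further glycolysis genes, 1 rose in EA1 and 1 rose and 1 fell in EA3. Of the 10 genes of HIF regulation, 3 rose in EA3 (Arnt, Vhl and Cited2) and none passed in EA1 or EA2. No pentose phosphate pathway gene rose in any line, and 1 fell in EA3. Of all genes tested, 1.98% rose and 1.65% fell in EA1, 5.69% rose and 5.66% fell in EA3, and 0% passed in EA2. Without day 1, 2 or 5 no gene at all passed in EA1, and without day 1 none passed in EA3.

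Some member counts can be affected by overlapping or similar genes, in a direction that was not tested. Exons of Ankrd37, Higd1a and Bnip3 share 22.7%, 22.5% and 22.3% of their bases with a gene on the other strand, and the strand setting of the counting is not given in the sources used here. Pkm shares 15.3% and Pfkm 10.2% with a gene on the same strand. Eno1b, a near copy of Eno1, had counts of up to 22.2% of those of Eno1, so the values of Eno1 are uncertain.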

How the data were processed

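RNA sequencing libraries of EA1, EA2 and EA3 cultures were made by the submitters with a stranded poly(A) kit. Per the study's methods and the labels, the authors used FastQC for read quality and bbduk for adapter removal, aligned with STAR against the mm10 mouse genome, and deposited the gene counts of STAR's own counter without normalization. Its strand setting is not given in the sources used here. Of the entries deposited, 24 carried dates in place of gene names, with 0.129% to 0.201% of the counts, and were left out. Samples were grouped by line and treatment from their titles, with the day as the replicate number.

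From the deposited counts, CPM with TMM-scaled totals and tests were computed with edgeR 4.0.16 in R 4.3.3 (glmQLFit with robust estimation, glmQLFTest, filterByExpr), with Benjamini-Hochberg adjustment over 14264 genes. The alectinib effect was fitted with 12 blocks of line and day, slopes with a mean and a slope on log2 of the day for each line and treatment, and DMSO levels with line and day. Daily log2 ratios used a prior count of 2. The tests were also run on simulated counts. Of 200 genes given a change with alectinib, 80, 78 and 68 were recovered in EA1, EA2 and EA3. The median estimates of these changes were 1.02, 1.00 and 0.99 log2 units. Of 200 genes given a DMSO slope, 116, 121 and 113 were recovered. Of the unchanged genes, 1 to 5 were called in each test. Alternatives were DESeq2 1.42.0, other scalings and filters, other sets of samples, days on a linear scale, the day block and leaving out each day. Same-day libraries of a line deviated together unevenly (r from -0.30 to 0.55, above 0.1 in 6 of 12 pairs of libraries). Values in every library are given for the 3 largest rises and falls past the threshold per line, with alectinib and over the DMSO days, and the 5 smallest p-values between lines, which named 13 of the 37, and for examples of each role. The members, lists and tests were chosen with earlier results of these data known.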

Additional observations from a re-analysis of the deposited data

Results flagged for a closer look

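The alectinib effect on Slc16a3 differed between the 3 lines by the test of the difference itself (edgeR's quasi-likelihood test, adjusted p = 0.0015), with the treated libraries lower on 4 of 4 days in EA2 and EA3 and higher on 3 of 4 days in EA1. For Epas1 the same test gave an adjusted p of 0.0361, with treated libraries lower on 4 of 4 days in EA2 and EA3, and lower on 2 and higher on 2 in EA1. That call was lost when day 2, day 3 or day 5 was left out and without the replicate block. For Ndrg1 in EA3 the alectinib and the DMSO slopes differed, with an adjusted p of 0.0168.

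Of 219 groups of 4 libraries of 1 line and treatment, 10 held a library whose gap to the next was large for the range of the group on log2(CPM + 1), where chance gives about 1 in 20. In the EA3 alectinib cultures the day 5 library stood above the others for Slc16a1 (299.9 CPM), Tpi1 (1052 CPM) and Pgk1 (693 CPM). In the EA1 alectinib cultures day 5 was below the others for Pfkfb3 (21.4 CPM) and Kdm3a (74.2 CPM), and day 1 was below the others for P4ha1 (119.5 CPM) and P4ha2 (24.5 CPM). With DMSO, Adm in EA1 was high on day 5 (5.82 CPM) and Eno1 in EA1 was low on day 3 (967 CPM), as was Eno1 in EA2 with alectinib on day 3 (593 CPM).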

How the results depend on the processing

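With alectinib in EA3, 21 to 30 members were called when a day was left out. The other ranges without 1 day were 2 to 5 in EA1, 7 to 13 in EA2, 1 to 6 between lines, 19 to 24 for DMSO levels between lines, 0 to 25, 0 to 0 and 0 to 26 for DMSO slopes in EA1, EA2 and EA3, and 0 to 3, 0 to 0 and 0 to 4 for slope differences. Without a filter on low counts, 11 members were called with alectinib in EA1, 19 in EA2 (1 higher, 18 lower), 25 between lines, 3 for DMSO slopes in EA2, and 10, 3 and 11 for slope differences. DESeq2 called 13 between lines and 3, 1 and 4 for slope differences. With library size alone 4 were called in EA1, and the median of all genes in EA3 moved from 0.07 to 0.18. Fitting each line alone called 3 in EA1. Without the replicate block of days, 3 were called in EA1, 1 between lines and 12 for DMSO levels between lines. With the replicate block, 1 was called for the slope difference in EA1, and the counts in EA2 and EA3 were 0 and 1. With all 26 libraries, DMSO slopes were called for 0 members in EA1 and 3 in EA3, and the slope difference for 0 in EA3, as with days on a linear scale. All 26 libraries include the 2 labeled EA3 day 7, which correlated best with EA2 libraries. That alternative gave 41 of the lost calls counted below. With the 12 DMSO libraries alone, 8 slopes were called in EA1. Pfkfb3 in EA1 had DMSO slopes of -0.011 to 1.57 when a day was left out, the lowest, without day 5, being reversed. Of the values of single members that were called, recomputed under each alternative, 1031 kept the call, 301 lost it and 1 reversed; tests between lines, counted among these, have no direction. Where no value shows a cause, the cause was not tested. Members with few counts, Adm, Car9 and Eno2 in EA1, limit what can be read from their folds, and an uncalled member is not shown to be unchanged.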

Other observations

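The DMSO and the alectinib library labeled EA3 day 7 entered only the alternative with all 26 libraries, and both correlated best with the EA2 libraries. Slc2a1 was at 224 CPM in the DMSO library and 45.4 in the alectinib library, Hk2 at 118 and 26.5, Vegfa at 647 and 132, Egln3 at 78.7 and 9.99, and Ndrg1 at 239 and 78.5. Slc16a3 was at 63.6 and 65.0 CPM, Ldha at 524 and 847, and Adm had no count in either. The Slc16a3 level of the DMSO library lay below each EA3 DMSO library of days 1 to 5, which held 212 to 592 CPM, and nearer to the EA2 DMSO range of 74.4 to 104 CPM.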
